A study of Mus musculus with 15 samples.

Results

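Hematopoietic stem cells (HSCs) of the GFP2 bin were compared with those of the GFP4 bin, 3 libraries against 3, in mouse bone marrow sorted by how much of a histone label the cells had kept. The genes tested were chosen by their level alone, while the gene lists and named genes were chosen with earlier results of these data known. Of 31298 gene symbols in the deposited table, 26183 were tested, those whose linear value was 1 or more in 3 or more of the 9 libraries used (3 each of GFP2, GFP3 and GFP4). All mice carried hCD34-tTA x TetO-H2BGFP, a tetracycline transactivator under human CD34 regulatory sequence together with a histone H2B-GFP fusion that it switches on, so the label is made only where that sequence is active. All mice also drank doxycycline, which switches the fusion off. HSCs were sorted from lineage-depleted marrow as LSK cells (lineage-negative, Sca1-positive, c-Kit-positive) that were CD48-, Flk2- and CD150+, and were then divided by H2B-GFP. In every bin, replicate I was from mice of 5 months given doxycycline for 12 weeks, replicate II from mice of 5.5 months given it for 14 weeks and replicate III from mice of 6.5 months given it for 16 weeks. The labels do not say whether a replicate was 1 mouse or a pool, whether the bins of one number share mice, or which end of the numbering held the most label. Results are given by bin name, with a higher number taken to mean more label, and p-values measure only the spread between these libraries. Of the 15 libraries in the series, 6 (the GFP1 bin and the undivided HSC sort called Total) took no part in any fit. Immunoglobulin genes summed to 49250 to 52844 ppm, as a share of the summed linear values of a library, in GFP1 and to 43467 to 54957 in Total. The sum was 94.5 to 181 ppm in GFP2, 141 to 622 in GFP3 and 112 to 759 in GFP4, so GFP2 against GFP4 was a comparison of bins that lack the high immunoglobulin level.

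HSCs are mostly out of cycle in adult marrow. Once the histone fusion is switched off, each division shares the labelled histones between the daughter cells, so the label that is left records past divisions. To divide, a cell raises the G1 kinases CDK4 and CDK6, which release E2F transcription factors and with them the genes of DNA replication. Genes of mitosis follow, many of them through a pair of promoter elements, the CCAAT box bound by NF-Y and the cell cycle homology region (CHR) bound by the DREAM and MuvB complexes. Transcripts of some markers of the sorted cells are given here. Their presence does not measure how pure the sort was, since transcripts of other cell types, given below, were found too. In the 9 libraries used, the transcripts of c-Kit (Kit, 15.57 to 16.14 on the deposited log2 scale), of Hlf (13.88 to 14.83) and Mecom (13.09 to 13.65), transcription factors of HSCs, and of CD150 (Slamf1, 11.05 to 11.48) were present in every library. Cd48 (7.34 to 9.42) and Flt3, which encodes Flk2 (9.84 to 10.38), were detected although the sort excluded both proteins.

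All libraries had been brought to one distribution, so read depth is unknown and a change in total RNA between the bins cannot be seen. Between 4038 and 9327 genes per library sat at the lowest value, and GFP2 replicate I had the most. That library also lay apart from its bin on the first principal component (41.5% of the variance), at −33.9 against −11.6 and −10.5 for replicates II and III; GFP3 ran from −7.93 to 8.31 and GFP4 from 10.8 to 23.9. For the total counts and many of the lists the count without it is also given. The RNA is bulk RNA, in which fewer cells of a type and less RNA per cell cannot be told apart.

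GFP2 cells had more RNA of genes for chromosome replication and mitosis, for ribosome production and of part of the megakaryocyte and erythroid programme than GFP4 cells, and less RNA of HSC-associated genes, of interferon-induced genes and of several Polycomb and signalling genes. At an adjusted p under 0.05, limma called 804 genes higher in GFP2, 3.07% of those tested, and 594 lower, 2.27% (both together 1398, or 5.34%). Of these, 223 were higher and 106 lower by at least 2-fold. The shares of 3.07% and 2.27% over all tested genes are the ones to set beside the list counts below. The median log2 difference (GFP2 minus GFP4 throughout) was 0.62 over the higher genes, −0.59 over the lower genes and −0.01 over all tested. In all 1398 called genes the 3 libraries of one bin lay above the 3 of the other. Over all tested genes, 10.8% did so with GFP2 higher and 10.3% with GFP2 lower. The counts depend on single libraries: without GFP2 replicate I they were 376 and 297, without GFP4 replicate I 420 and 332, without GFP4 replicate III 510 and 306, and without GFP4 replicate II 617 and 363. In all 9 fits that each leave out 1 library, 544 genes (327 higher, 217 lower) passed. Genes described as holding throughout are among those 544. The calls also rest on the intensity trend of the fit: with plain empirical Bayes in its place limma called 1 gene higher and 2 lower over all tested genes, and 886 and 696 over genes with a mean of 10 ppm or more, the latter a setting added after the data were seen.

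**Figure D1:**
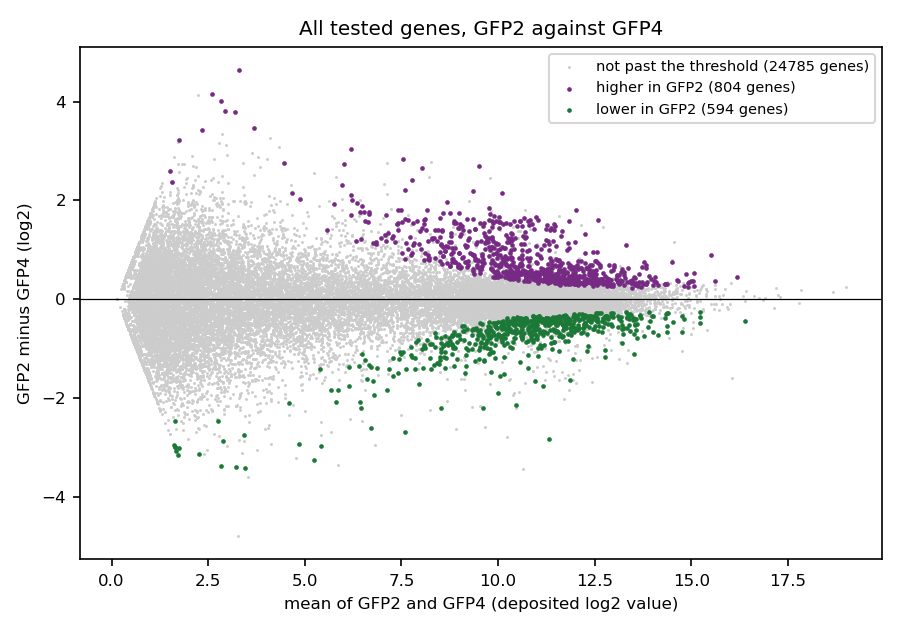
Difference between the bins for every tested gene. The horizontal axis is the mean of GFP2 and GFP4 on the deposited log2 scale and the vertical axis the log2 difference, GFP2 minus GFP4; each point is 1 gene, with the 804 higher genes in purple and the 594 lower genes in green. The cloud is centred at −0.01, and genes near the lowest values scatter most.

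Among genes that averaged 10 ppm or more over the 9 libraries, the largest rises joined genes of the megakaryocyte and erythroid lineages with genes of mitosis. Mfsd2b (chromosome 12, 4862440 to 4874359, GRCm38), the exporter of sphingosine-1-phosphate in red cells and platelets, had log2 values of 8.05, 8.56 and 7.89 in GFP4 replicates I, II and III and of 11.21, 10.37 and 10.99 in GFP2. Every GFP2 library was far above every GFP4 library, a rise of 2.69 (limma SE 0.29, adjusted p = 0.00113), or 6.44-fold. Tuba8 (chromosome 6, 121210696 to 121226854), an alpha tubulin found in platelets, was 8.14, 8.31 and 8.36 in GFP4 and 10.73, 10.15 and 10.49 in GFP2, again without overlap (rise of 2.19, limma SE 0.19, adjusted p = 3.63e-05). For Slc22a3 (chromosome 17, 12418960 to 12507704), an organic cation transporter, the GFP4 libraries gave 8.92, 9.34 and 8.81 and the GFP2 libraries 11.16, 11.08 and 11.26, which lie close together within each bin (rise of 2.14, SE 0.16, limma adjusted p = 1.18e-05). Itga2b (chromosome 11, 102453297 to 102470122), the platelet integrin CD41 that also marks early blood progenitors, went from 10.86, 11.30 and 11.17 to 13.11, 12.64 and 13.00, with GFP3 at 12.26, 11.74 and 12.18. All GFP2 libraries again exceeded all GFP4 libraries (rise of 1.81, SE 0.17, limma adjusted p = 0.000546). The other 8 of the 12 largest rises at that level were the voltage-gated potassium channel Kcna3 (1.97), the chromokinesin Kif4 (1.84), Depdc1a (1.75), the linker histone Hist1h1b (1.75), Dnajc6, which uncoats clathrin vesicles (1.74), Fam64a (1.73), the mitotic kinase Plk1 (1.68) and the kinase Pbk (1.67). Of the 12, 4 lost the threshold when 1 library was left out: Kif4 without GFP2 replicate I, GFP4 replicate I or GFP4 replicate III (limma adjusted p = 0.0685, 0.0709 and 0.0744), Depdc1a without GFP4 replicate I or III (0.0735 and 0.0719), Dnajc6 without GFP4 replicate I (0.0720) and Fam64a without GFP2 replicate I (0.0545).

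Among genes that averaged 10 ppm or more, the largest falls held 2 guanylate-binding proteins, the retinoic acid hydroxylase Cyp26b1 and several regulators of transcription and RNA. Gbp9 (chromosome 5, 105077630 to 105139539), an interferon-induced GTPase, read 11.87, 12.14 and 12.07 in GFP4 and 10.37, 10.27 and 10.20 in GFP2, with GFP3 between them at 11.06, 11.15 and 10.91. The 3 bins did not overlap, and the difference of −1.75 (SE 0.10) had the smallest limma adjusted p of all genes, 7.64e-07. Its neighbour Gbp4 (chromosome 5, 105115767 to 105139586) overlaps it on the same strand, and guanylate-binding proteins are close copies of each other, so the division of reads between them is uncertain. Gbp4 fell by 1.64 (SE 0.18, limma adjusted p = 0.000709). Igf2bp2 (chromosome 16, 22059009 to 22163299), which binds messenger RNAs, was 10.70, 10.56 and 10.85 in GFP4 and 8.23, 8.43 and 8.88 in GFP2, with no overlap and a difference of −2.19 (SE 0.22, limma adjusted p = 0.000240). Ahnak (chromosome 19, 8989284 to 9076914), a very large scaffold protein, was 11.65, 11.43 and 11.54 in GFP4 and 9.47, 9.53 and 9.20 in GFP2, and every GFP2 library was lower by more than the whole spread of either bin (difference of −2.14, SE 0.18, limma adjusted p = 5.88e-05). The growth factor receptor Fgfr3 (−1.47), the TFIID subunit Taf4 (−2.19) and Cyp26b1 (−1.90) also held throughout.

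A group of these genes split the middle bin by library. Irf2bp2, a partner of the repressor IRF2, was 13.09, 12.38 and 12.76 in GFP4, 10.08, 10.23 and 12.03 in GFP3 and 9.73, 10.05 and 9.97 in GFP2. GFP3 replicates I and II thus sat with GFP2 while replicate III sat near GFP4. The difference of −2.83 passed narrowly (SE 0.54, limma adjusted p = 0.0371) and was lost without any 1 library of GFP2 or GFP4 or without GFP3 replicate II, with adjusted p up to 0.136 without GFP2 replicate I. Ski, a repressor of TGF-beta signalling, had the same split, with GFP4 at 12.55, 12.30 and 12.21, GFP3 at 8.81, 9.13 and 11.90 and GFP2 at 8.64, 8.78 and 9.35. Its difference of −3.43 did not pass (SE 0.81, limma adjusted p = 0.0764), although the GFP2 and GFP4 libraries lay far apart. Without GFP3 replicate III, whose value widens the shared estimate of spread, the same difference had an adjusted p of 2.39e-06. In the histone demethylase gene Phf2 replicate III of GFP3 (9.51, 9.53 and 10.60 for the 3 libraries) likewise sat with GFP4 (10.97, 10.88 and 10.62). Phf2 (−1.55), the protease inhibitor Serpina3f (−1.52), the adhesion protein Tns2 (−1.62) and the tight junction protein Cldn5 (−1.48) complete the 12 largest falls at that level. All 4 lost the threshold without GFP4 replicate I (limma adjusted p = 0.122, 0.136, 0.101 and 0.0531), and Phf2, Serpina3f and Tns2 without several others too.

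**Figure D2:**
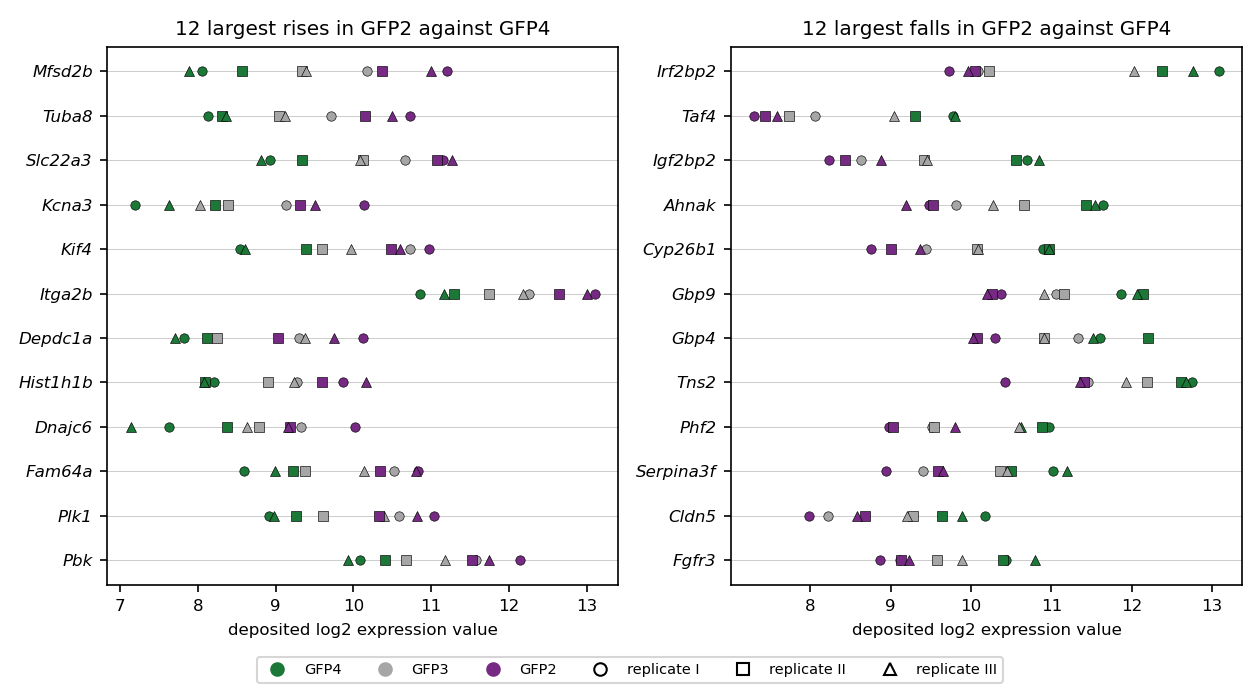
The 12 largest rises (left) and the 12 largest falls (right) among called genes whose mean reached 10 ppm. The horizontal axis is the deposited log2 value; each point is 1 library, coloured by bin and shaped by replicate. GFP2 and GFP4 do not overlap for any of the 24 genes, and GFP3 lies mostly between them, with replicate III of GFP3 (grey triangle) beside GFP4 for Irf2bp2 and Phf2.

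Genes of mitosis and cytokinesis were the group with the largest share of members called. Of 57 tested members 50 were higher in GFP2 and 0 lower (87.7%, against 3.07% of all tested genes), 56 of the 57 differences were positive, and the median was 1.44. The list median relative to the GFP4 mean was 1.73, 1.14 and 1.44 in GFP2 replicates I, II and III and −0.12, 0.25 and −0.13 in GFP4. Every GFP2 library was above every GFP4 library by a wide margin. Cdca8 (chromosome 4, 124918465 to 124939311), a subunit of the chromosomal passenger complex that corrects kinetochore attachment, was 9.81, 10.18 and 9.96 in GFP4 and 11.83, 11.31 and 11.58 in GFP2 (rise of 1.59, SE 0.17, limma adjusted p = 0.000546). Its partner Incenp rose by 1.11 and Racgap1, which directs cleavage furrow formation, by 1.07, both throughout. The proliferation marker Mki67 (chromosome 7, 135689784 to 135716361) was 11.74, 12.18 and 11.39 in GFP4 and 13.65, 13.03 and 13.46 in GFP2, a rise of 1.61 that passed only narrowly (SE 0.33, limma adjusted p = 0.0471) and missed the threshold in 8 of the 9 fits with a library left out, all but the one without GFP3 replicate I (adjusted p up to 0.161, without GFP2 replicate I). The count of 50 was 23 without GFP2 replicate I, 29 without GFP2 replicate III, 26 without GFP4 replicate I and 22 without GFP4 replicate III, and 20 members held throughout.

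The promoters of these genes were searched for the 2 elements named above, as CCAAT and as TTTGAA for the CHR, on both strands of RefSeq promoters (GRCm38.p6, 250 bases before to 50 after each start). Of the 26183 tested genes 14915 matched a promoter. Both elements were present in 64.0% of the promoters of the mitosis list (32 of 50, from 47 of its genes) and in 5.79% of all 18438 promoters. Counted each for itself, TTTGAA was in 70.0% and 14.4% and CCAAT in 76.0% and 37.7%. Over all genes higher in GFP2 both were in 13.0% of promoters, and over the lower genes in 3.76%. The stretches printed here are the 120 bases upstream of a RefSeq start, each on the strand of its gene and read 5′ to 3′. By GENCODE gene bounds the Bub3 stretch lies wholly inside its gene and the others partly. The distances below therefore hold for the RefSeq start used. These stretches come from the 4 mitosis genes with the smallest p, among those searched for printing, that hold both elements there. At least 9 of the 50 higher genes do. Capitals mark each match, on either strand. A gene was chosen only with both elements inside these bases, so the closeness of the letters here follows from the choice.
Bub3, chr7:131560250-131560369, plus strand: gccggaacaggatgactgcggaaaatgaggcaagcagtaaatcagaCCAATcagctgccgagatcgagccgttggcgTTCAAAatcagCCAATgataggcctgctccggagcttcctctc
Ube2c, chr2:164769809-164769928, plus strand: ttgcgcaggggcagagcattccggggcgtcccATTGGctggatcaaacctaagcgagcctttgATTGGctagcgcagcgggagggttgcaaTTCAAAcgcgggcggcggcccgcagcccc
Cdk1, chr10:69352913-69353032, minus strand: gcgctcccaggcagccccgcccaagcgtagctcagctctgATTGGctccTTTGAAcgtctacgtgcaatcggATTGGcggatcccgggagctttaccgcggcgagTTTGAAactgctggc
Kif22, chr7:127042421-127042540, minus strand: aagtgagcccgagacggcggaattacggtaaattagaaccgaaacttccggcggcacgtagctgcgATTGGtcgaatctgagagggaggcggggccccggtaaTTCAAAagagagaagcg
Bub3, a spindle checkpoint protein, holds CCAAT letters that begin 74 and 32 bases upstream with the CHR letters at 43. In Ube2c, the ubiquitin-conjugating enzyme of the anaphase-promoting complex, they begin at 88 and 57 with the CHR letters at 29. Cdk1, the kinase that starts mitosis, has the CHR letters at 71 and 15 and CCAAT at 80 and 48, and the chromokinesin gene Kif22 has 1 of each, at 17 and 54. Bub3 was 12.32, 12.32 and 12.43 in GFP4 and 12.85, 12.76 and 12.65 in GFP2, a small rise of 0.40 without overlap. Ube2c rose from 10.06, 10.07 and 10.01 to 11.62, 11.33 and 11.73 and Cdk1 from 10.35, 10.75 and 10.41 to 12.28, 11.70 and 12.07, both by 1.51. Kif22 rose by 1.58. Each of the 4 missed the threshold without 1 or more single libraries, with limma adjusted p between 0.0504 (Ube2c, without GFP4 replicate III) and 0.0719 (Kif22, without GFP4 replicate III). A match is a description of letters, and the binding of a factor was not measured.

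Replication genes rose with them. Of 46 members of the replication licensing and fork list, 37 were higher in GFP2 and 0 lower, all 46 differences were positive, and the median was 0.75. By library, the list median was 0.95, 0.60 and 0.72 in GFP2 and −0.06, 0.08 and −0.03 in GFP4, without overlap. Lig1, the ligase that joins Okazaki fragments, was 10.49, 10.69 and 10.75 in GFP4 and 11.82, 11.62 and 11.76 in GFP2 (rise of 1.09, SE 0.12, limma adjusted p = 0.000251). Uhrf1, which brings the maintenance DNA methyltransferase to new DNA, rose by 1.03 and the E2F and MYC target Cdca7 by 0.95. The letters TTCGCGC or TTGGCGC of an E2F site were in 32.6% of the promoters of this list against 5.35% of all promoters; those of the mitosis list had them in 16.0%. With single libraries left out the count ran from 27 to 40, and 25 members held throughout.

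G1 regulators rose in part. Of 18 members of the G1 entry list 9 were higher and 0 lower (median 0.41), and 7 held throughout. Cdk6 (chromosome 5, 3341485 to 3531008), the G1 kinase whose level sets how soon HSCs leave quiescence, was 11.67, 11.52 and 11.56 in GFP4, 12.43, 12.23 and 12.23 in GFP3 and 13.03, 12.72 and 12.97 in GFP2. The 3 bins formed separate steps with no overlap between any of them (rise from GFP4 to GFP2 of 1.32, or 2.50-fold, SE 0.09, limma adjusted p = 6.05e-06). Cdk4 rose by 0.42 and Myc by 0.50 (SE 0.07, limma adjusted p = 0.00120). The D cyclins that partner these kinases did not pass: Ccnd1 differed by −0.18 (adjusted p = 0.742) and Ccnd2 by −0.16 (0.359), and neither did Mycn (−0.02, limma adjusted p = 0.990).

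Genes of DNA repair and histone supply followed the same direction. Of 22 repair genes 11 were higher and 0 lower (median 0.69), among them the helicase Blm (0.92) and the Fanconi anaemia gene Fancd2 (1.11), both of which held throughout; the count was 7 without GFP2 replicate I and 6 without GFP4 replicate I or III. Of 68 histone cluster genes, whose transcripts are made mainly in S phase, 10 were higher and 0 lower (median 1.04), with 7 higher without GFP2 replicate I. Hist1h1b was 8.20, 8.09 and 8.09 in GFP4 and 9.87, 9.60 and 10.16 in GFP2, far apart. The core histone gene Hist1h2ab rose by 1.61 and the linker histone gene Hist1h1d by 1.54. Cluster histones are near-identical copies, so the value of a single one is uncertain, and the list median moved between 0.09 and 1.28 over the alternative settings.

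Genes of growth and protein turnover rose by less. In the ribosome biogenesis list 13 of 30 were higher and 0 lower, all 30 differences were positive, and the median was 0.32. Nop58 and Nop56, core proteins of the small nucleolar particles that methylate ribosomal RNA, rose by 0.51 (SE 0.08, limma adjusted p = 0.00190) and 0.41, and Nhp2, of the particles that make pseudouridine, by 0.61. Nop58 was 12.29, 12.29 and 12.25 in GFP4 and 12.90, 12.69 and 12.76 in GFP2, so a difference of this size stood clear of a very small spread. Proteasome subunits were higher in 10 of 39 (Psmd13 0.46), aminoacyl-tRNA synthetases in 4 of 20 (Aars 0.43), mitochondrial ribosomal proteins in 6 of 76 (Mrpl12 0.67, Mrpl18 0.64 and Mrps28 0.62) and cytosolic ribosomal proteins in 6 of 87, with 0 lower in each. Oxidative phosphorylation genes were higher in 7 of 36 (median 0.26), with the cytochrome c oxidase subunit Cox5a at 0.55 (SE 0.10, limma adjusted p = 0.00503). These counts rest on single libraries. Without GFP2 replicate I there were 7 ribosome biogenesis, 1 proteasome, 1 synthetase, 1 oxidative phosphorylation and 0 cytosolic ribosomal genes, without GFP4 replicate I there were 7, 2, 1, 1 and 1, and without GFP4 replicate II 8, 2, 1, 2 and 2. Without GFP2 replicate II 3 oxidative phosphorylation genes and 1 synthetase passed, without GFP2 replicate III 2 cytosolic ribosomal genes, without GFP3 replicate I 4 oxidative phosphorylation genes and without GFP4 replicate III 2 synthetases. Other settings raised the counts: with the replicate number as a block 13 oxidative phosphorylation and 17 cytosolic ribosomal genes passed, and over genes with a mean of 10 ppm or more 15 oxidative phosphorylation, 18 proteasome, 13 mitochondrial ribosomal and 7 synthetase genes did. The shares called were 6.90% among cytosolic and 7.89% among mitochondrial ribosomal proteins, beside 3.07% of all tested genes, and cytosolic ribosomal genes have near-identical pseudogenes that make single values uncertain. Of the 13 genes encoded by mitochondrial DNA limma called 0 (2 were lower at an unadjusted p under 0.05).

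Glycolysis genes split. In GFP2, 4 of 22 were higher and 3 lower, with a median of 0.03. Pgk1 (0.40), Gapdh (0.25) and Tpi1 (0.28) rose and each lost the threshold without GFP2 replicate I (limma adjusted p = 0.0972, 0.0666 and 0.130); the count of 4 was 0 without GFP2 or GFP4 replicate I, 1 without GFP2 replicate II or III and 2 without GFP4 replicate II. Of the 3 lower genes 1 was left without GFP4 replicate III. The glucose transporter Slc2a1 fell by 0.52 throughout (SE 0.11, limma adjusted p = 0.00933), from 11.58, 11.51 and 11.59 to 10.99, 11.17 and 10.95. Cholesterol synthesis genes had 0 of 22 called by limma in either direction, with a median of 0.01 (2 were higher at an unadjusted p under 0.05, and 1 passed without GFP2 or GFP3 replicate III).

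**Figure D3:**
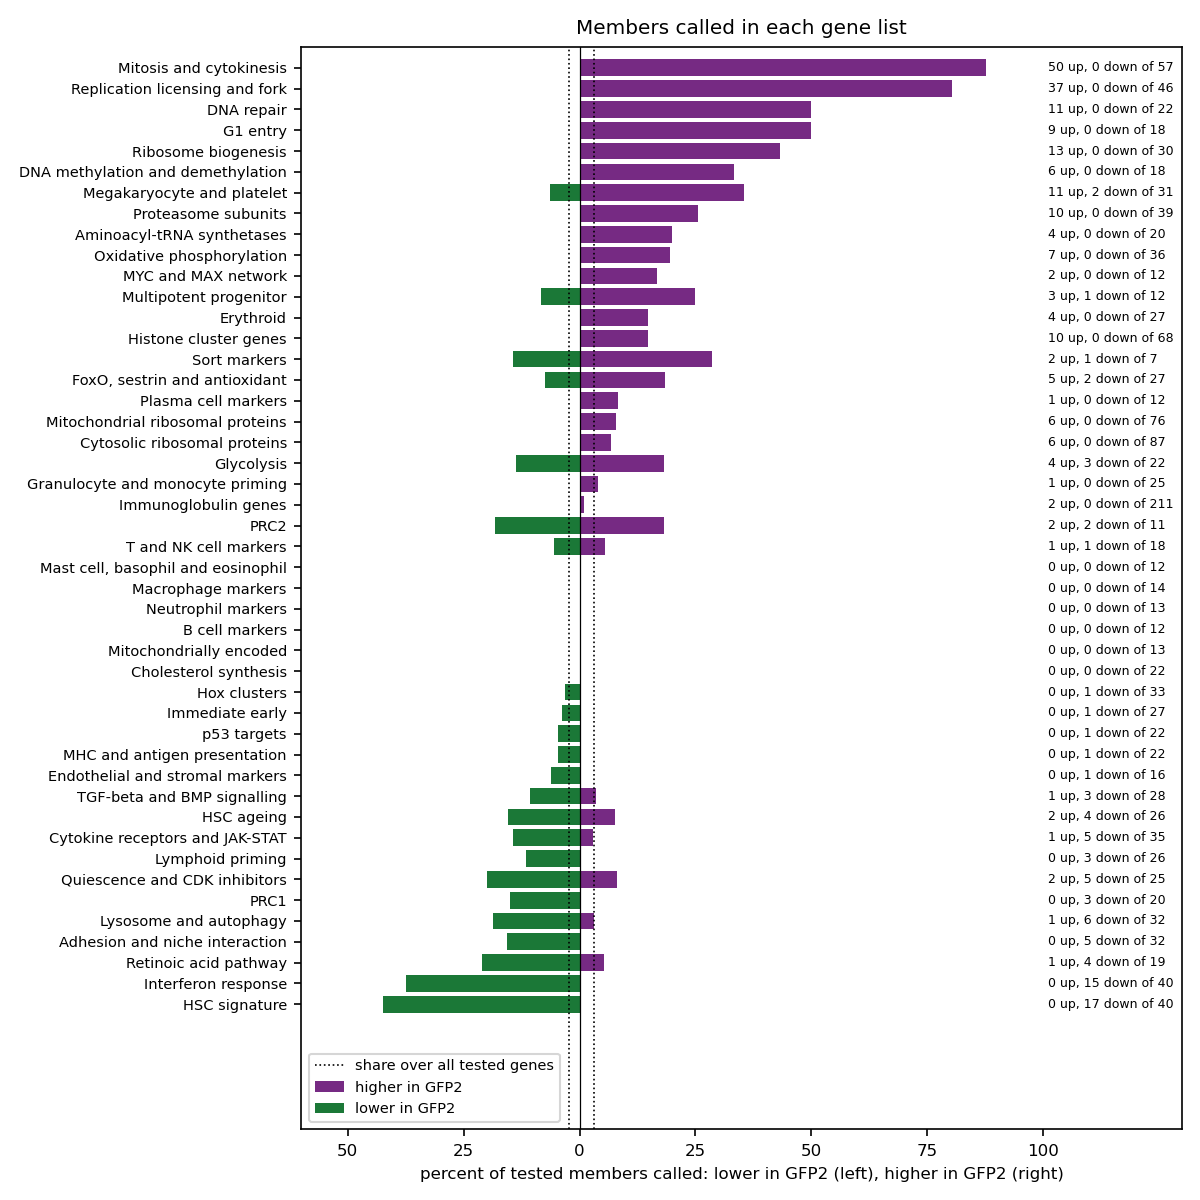
Share of tested members called in each of the gene lists. The horizontal axis is the percent of tested members called by limma, to the right (purple) for higher and to the left (green) for lower in GFP2; dotted lines mark the share over all tested genes, 3.07% and 2.27%, and the counts stand at the right. Mitosis and replication lead one end, and the HSC signature and interferon response the other.

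HSC-associated genes were lower in GFP2 as a group. Of the 40 members of the HSC signature 17 were lower and 0 higher (42.5%, against 2.27% of all tested genes), 33 differences were negative, and the median was −0.40. The list median was −0.47, −0.41 and −0.33 in GFP2 and −0.07, 0.02 and 0.09 in GFP4, without overlap. Hlf (chromosome 11, 90336536 to 90390895), a transcription factor that keeps HSCs from differentiating, was 14.63, 14.83 and 14.66 in GFP4, 14.29, 14.48 and 14.41 in GFP3 and 13.88, 14.07 and 14.17 in GFP2. The bins stepped down without overlap (difference of −0.67, SE 0.08, limma adjusted p = 0.000546). Mecom, needed for HSC maintenance, fell by 0.38 (SE 0.07, limma adjusted p = 0.00693). The sulfotransferase gene Sult1a1 (chromosome 7, 126672865 to 126676432) fell most clearly, from 13.19, 13.41 and 13.46 in GFP4 through 12.67, 12.92 and 12.99 in GFP3 to 12.06, 12.25 and 12.27 in GFP2 (difference of −1.15, limma adjusted p = 3.18e-05). The count of 17 was 13 without GFP2 replicate I, 11 without GFP4 replicate I and 10 without GFP4 replicate III, and 10 members held throughout.

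Other markers of this compartment gave no uniform picture. Procr (chromosome 2, 155751117 to 155755471), the receptor for protein C on endothelium and HSCs, was 12.86, 12.62 and 13.03 in GFP4 and 11.19, 12.14 and 12.16 in GFP2. The libraries did not overlap, but GFP2 replicate I was far below replicates II and III, and the difference of −1.01 did not pass (SE 0.35, limma adjusted p = 0.217). Fgd5 lay just outside the threshold at −0.61 (limma adjusted p = 0.0559) and passed without GFP2 replicate III (0.0374) or GFP3 replicate I (0.0292) or II (0.0275). Differences that did not pass were small for Vwf (0.16, adjusted p = 0.703), Slamf1 (−0.13, 0.643), Kit (−0.09, 0.868) and Hoxb5 (−0.16, limma adjusted p = 0.826). Among the proteins used for the sort, Ly6a, which encodes Sca1, fell by 1.11, but did not pass without GFP4 replicate I (limma adjusted p = 0.0636) or III (0.0581). The transcript of CD34, a marker of multipotent progenitors in mouse, rose from 12.27, 12.03 and 12.08 to 12.89, 12.93 and 12.89 (rise of 0.77, SE 0.09, limma adjusted p = 0.000283). The transactivator of the label was driven by human CD34 sequence, and its own level is not in the table used here. Cd48 (0.56, adjusted p = 0.730) and Flt3 (−0.25, limma adjusted p = 0.420) did not pass.

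In the list of quiescence genes and CDK inhibitors, 2 of 25 were higher and 5 lower (median −0.35). Not all members inhibit the cell cycle. The lower ones include the pyruvate dehydrogenase kinase Pdk2 (−0.44), which lost the threshold without GFP2 replicate III or GFP4 replicate II or III. Cdkn1c (chromosome 7, 143458339 to 143461050), which encodes p57, an inhibitor needed for HSC quiescence, was 11.59, 11.36 and 11.63 in GFP4 and 10.16, 10.67 and 10.83 in GFP2. It fell by 0.98 without overlap (SE 0.20, limma adjusted p = 0.0174), but did not pass without GFP4 replicate I (0.0756) or III (0.0756). Rbl2, the p130 pocket protein of resting cells, fell by 0.49 and the growth suppressor Ndn, a p53 target in HSCs, fell by 0.67, both throughout. In contrast Cdkn2c, which encodes p18 and inhibits CDK4 and CDK6, rose from 7.91, 8.53 and 8.58 to 10.09, 9.44 and 9.93 (rise of 1.48, SE 0.21, limma adjusted p = 0.00122). Cdkn1a (p21, −0.11, adjusted p = 0.913) and Cdkn1b (p27, 0.02, limma adjusted p = 0.972) did not pass. Without any 1 of the GFP4 libraries 3 list members were lower. The other riser, the pocket protein gene Rbl1 (0.61), lost the threshold without GFP2 replicate I or III, GFP3 replicate III or any GFP4 library.

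Megakaryocyte and platelet genes moved in both directions, mostly up. Of 31 tested, 11 were higher and 2 lower (35.5% and 6.45%), with a median of 0.36, and 7 higher and 2 lower held throughout (7 higher without GFP2 replicate I). The platelet glycoprotein gene Gp5 was 8.75, 8.78 and 8.76 in GFP4, an almost constant value, and 10.57, 10.02 and 10.30 in GFP2 (rise of 1.54, SE 0.17, limma adjusted p = 0.000283). Gata1 (chromosome X, 7959260 to 7978071), the transcription factor of the megakaryocyte and erythroid lineages, was low in GFP4 at 5.91, 7.36 and 6.85 and reached 9.86, 8.96 and 9.27 in GFP2. It rose by 2.66 without overlap (SE 0.40, limma adjusted p = 0.00388), and it held throughout. The myosin kinase gene Mylk (−0.82) was among the 2 members that fell. Vwf, a platelet gene that marks a platelet-primed part of the HSCs, did not pass. The summed level of the list was 3362 to 3732 ppm in GFP2 and 3253 to 3740 in GFP4. These ranges overlap (2-sided exact permutation test p = 0.7, where 3 against 3 cannot go below 0.1).

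In the erythroid list 4 of 27 members were higher and 0 lower, while the median was −0.03. Its summed level overlapped between the bins, at 3421 to 3611 ppm in GFP2 and 2961 to 3773 in GFP4 (2-sided exact permutation test p = 0.5). Epor, the erythropoietin receptor, was 7.42, 8.34 and 7.75 in GFP4 and 9.34, 9.14 and 9.26 in GFP2 (rise of 1.41, SE 0.21, limma adjusted p = 0.00157), and Gata1 and Mfsd2b are in the list too. The globin genes Hbb-bs (−0.45, adjusted p = 0.826) and Hba-a1 (−0.60, limma adjusted p = 0.644) did not pass and overlapped between the bins. They have near-identical copies, so single values are uncertain.

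In the lymphoid priming list 0 of 26 were higher and 3 lower: the actin-binding protein gene Lsp1 (−0.69), the receptor Notch1 (−0.76) and the chromatin organiser Satb1 (−1.23), all throughout. Lsp1 was 12.59, 12.53 and 12.80 in GFP4 and 12.00, 11.97 and 11.86 in GFP2, without overlap (SE 0.09, limma adjusted p = 0.000546). In the granulocyte and monocyte priming list 1 of 25 was higher (4%, near the 3.07% of all tested genes). It was Nkg7 (1.17), a granule protein of cytotoxic lymphocytes that is also in the T and NK cell list. Mpo (−0.92, adjusted p = 0.582) and Cebpa (0.15, limma adjusted p = 0.901) did not pass. Of 26 genes of HSC ageing 2 were higher, the glutathione transferase Gstm2 (1.49) and Aldh1a1 (0.46), and 4 lower, among them Sult1a1, Neo1 (−0.77) and Mllt3 (−0.89). The lower count was 2 without GFP4 replicate I or II and 1 without GFP4 replicate III, and Neo1 also missed the threshold without GFP2 replicate II (limma adjusted p = 0.0591). Aldh1a1 lost it without GFP2 or GFP4 replicate I (limma adjusted p = 0.0685 and 0.0777).

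**Figure D4:**
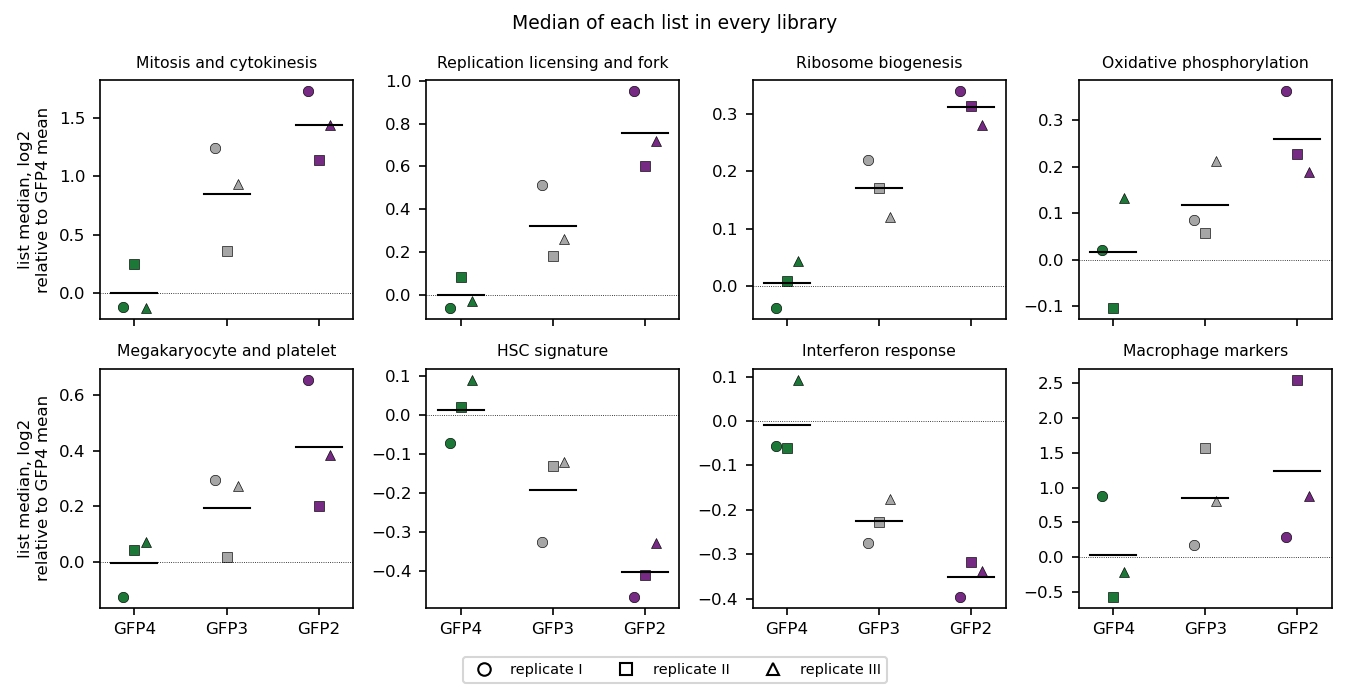
Median of 8 lists in every library. The vertical axis of each panel is the median over the list's tested members of the log2 value relative to the GFP4 mean, points are single libraries shaped by replicate, and lines are bin means. The cell cycle, ribosome biogenesis, HSC signature and interferon medians separate GFP2 from GFP4 with GFP3 between; the macrophage markers overlap between bins and are highest in GFP2 replicate II, at 2.55.

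Interferon-induced genes were lower in GFP2. These genes defend cells against viruses and are kept at a raised baseline in stem cells. Of 40 tested, 15 were lower and 0 higher (37.5%, against 2.27% of all tested genes), 35 differences were negative, the median was −0.31, and 10 members held throughout. By library the list median was −0.40, −0.32 and −0.34 in GFP2 and −0.06, −0.06 and 0.09 in GFP4, without overlap. Iigp1, an immunity-related GTPase, was 12.71, 12.72 and 12.96 in GFP4 and 11.59, 11.96 and 12.03 in GFP2 (difference of −0.93, SE 0.13, limma adjusted p = 0.00144). Ifi44, another interferon-induced gene, fell by 0.51 throughout (SE 0.08, limma adjusted p = 0.00190). Leaving out GFP2 replicate I gave a count of 11 and leaving out GFP4 replicate III a count of 10. In the separate list of major histocompatibility and antigen presentation genes 1 of 22 was lower (4.55%, against 2.27% of all tested genes). It was the peptide loading protein Tapbp (−0.38), which lost the threshold without GFP2 replicate I (limma adjusted p = 0.0720) or GFP4 replicate III (0.0671). Without GFP4 replicate I 4 of the 22 were lower.

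The interferon-stimulated response element was searched as GAAA, any 2 bases and GAAA again, a motif added after these values had been seen. It was present on either strand in 60.6% of the promoters of the interferon list (20 of 33, from 28 of its genes), in 6.70% of those of all lower genes and in 3.24% of all promoters. The stretches printed here are the 120 bases upstream of a RefSeq start in 3 lower interferon genes that hold it there, with matches in capitals. By GENCODE gene bounds the Irgm1 stretch lies wholly inside its gene, the Gbp2 stretch partly and the Igtp stretch outside. These 3 genes had the smallest p among the genes searched for printing that hold it. Iigp1, whose p was smaller, was not searched, so whether it holds the element there was not tested. Of 17 lower genes (the 15 of the list with Gbp4 and Gbp9), at least 6 hold it there.
Gbp2, chr3:142620543-142620662, plus strand: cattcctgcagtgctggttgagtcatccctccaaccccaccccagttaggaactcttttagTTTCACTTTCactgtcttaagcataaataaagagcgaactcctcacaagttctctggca
Igtp, chr11:58199436-58199555, plus strand: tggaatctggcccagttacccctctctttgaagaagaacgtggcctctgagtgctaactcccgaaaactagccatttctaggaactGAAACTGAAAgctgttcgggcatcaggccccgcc
Irgm1, chr11:48871421-48871540, minus strand: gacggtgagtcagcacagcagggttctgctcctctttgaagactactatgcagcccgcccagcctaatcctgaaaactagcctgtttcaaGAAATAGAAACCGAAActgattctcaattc
The match starts 59 bases upstream in Gbp2, where it lies on the other strand, and 34 in Igtp. In Irgm1 there are overlapping matches that begin at 30 and 24. Gbp2, like Gbp9, belongs to a family of close copies, so its value is uncertain. Gbp2, a guanylate-binding protein, was 12.11, 12.06 and 12.26 in GFP4 and 11.62, 11.56 and 11.54 in GFP2 (difference of −0.58, SE 0.09, limma adjusted p = 0.00219). Igtp fell by 0.57 and Irgm1 fell by 0.43; both are immunity-related GTPases, and in both the GFP2 libraries were all below the GFP4 libraries. All 3 held throughout.

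Some chromatin regulators rose and others fell. Of 11 members of Polycomb repressive complex 2 (PRC2), which methylates histone H3 at lysine 27, 2 were higher and 2 lower. Ezh2 (chromosome 6, 47530139 to 47595341), its methyltransferase in dividing cells, was 10.57, 10.87 and 10.52 in GFP4 and 11.77, 11.39 and 11.42 in GFP2 (rise of 0.88, SE 0.16, limma adjusted p = 0.00603). Ezh1 (chromosome 11, 101191115 to 101226463), the paralog of resting cells, went the other way, from 12.20, 12.51 and 12.44 to 11.89, 11.70 and 11.84 (difference of −0.57, SE 0.09, limma adjusted p = 0.00219). Both held throughout, and neither overlapped between the bins. The histone chaperone Rbbp4 also rose (0.33), lost without GFP2 replicate I or III or GFP4 replicate II or III, and Phf1, which guides the complex, fell by 0.66. Of 20 members of Polycomb repressive complex 1 (PRC1), 0 were higher and 3 lower: Bmi1, required for HSC self-renewal (−0.63, SE 0.10), Cbx7 (−0.74, SE 0.11) and Cbx6 (−0.56, SE 0.09), with limma adjusted p of 0.00156, 0.00156 and 0.00187. Bmi1 was 12.19, 12.28 and 12.18 in GFP4 and 11.66, 11.64 and 11.44 in GFP2. With the replicate number as a block 5 PRC1 genes were lower. Of 18 DNA methylation genes 6 were higher and 0 lower (3 higher without GFP2 replicate I, GFP4 replicate I or GFP4 replicate III). The maintenance methyltransferase Dnmt1 rose by 0.70 (SE 0.10, limma adjusted p = 0.00144), Dnmt3b by 0.45 (0.0141, lost without GFP2 replicate I at 0.0627, GFP4 replicate I at 0.0771 or GFP4 replicate III at 0.0647), and Dnmt3a did not pass (−0.19, 0.262). In the Hox clusters 1 of 33 was lower (3.03%, near the 2.27% of all tested genes). It was Hoxa9 (−0.44), which lost the threshold without GFP2 replicate I, GFP4 replicate I or GFP4 replicate III (limma adjusted p = 0.0774, 0.0592 and 0.0627). Without GFP3 replicate I 3 Hox genes were lower, and without GFP3 replicate II 2.

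Some genes of several signalling pathways fell, and a few rose. The retinoic acid list had 1 higher (Aldh1a1, given above) and 4 lower of 19, with 2 lower without GFP2 replicate I, GFP4 replicate I or GFP4 replicate III. Cyp26b1 (chromosome 6, 84571414 to 84593908), which degrades retinoic acid, a signal linked to HSC dormancy, was 10.89, 10.97 and 10.97 in GFP4, 9.44, 10.08 and 10.09 in GFP3 and 8.76, 9.01 and 9.37 in GFP2. The GFP4 libraries were almost identical and all other libraries lay below them (difference of −1.90, SE 0.18, limma adjusted p = 0.000108). Rdh10, which makes the precursor of retinoic acid, fell by 0.69, and the receptor Rarb fell by 0.88, the latter lost without GFP2 replicate I or GFP4 replicate I or III (limma adjusted p = 0.0757, 0.0929 and 0.0890). In the TGF-beta and BMP list 1 of 28 was higher and 3 were lower (6 lower with the replicate number as a block or over genes with a mean of 10 ppm or more). Those shares were 3.57% and 10.7%, beside 3.07% and 2.27% of all tested genes. Tgfb1, the ligand, rose from 11.52, 11.59 and 11.47 to 12.29, 12.13 and 12.23 (rise of 0.69, SE 0.08, limma adjusted p = 0.000347). Ltbp4, which holds latent TGF-beta in the matrix, fell by 1.18, the receptor Acvr1 fell by 1.56 and the inhibitor Smad7 fell by 0.79, and these 4 held throughout. The receptor Tgfbr2 did not pass (−0.14, limma adjusted p = 0.711).

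Cytokine receptor and JAK-STAT genes had 1 higher (Epor) and 5 lower of 35, with the shared receptor subunit Il6st at −0.57 (SE 0.11, limma adjusted p = 0.00540). Without GFP2 replicate I 3 were lower and without GFP2 replicate II 8. Adhesion and niche genes had 0 higher and 5 lower of 32, with Jam3 (−0.82) and the integrin Itgb7 (−0.78) throughout, and 3 lower without any 1 of the GFP4 libraries. Jam3 was 10.48, 10.42 and 10.68 in GFP4 and 9.55, 9.86 and 9.70 in GFP2, without overlap. The immediate early gene Klf6 fell by 0.84 and was the 1 member called of 27 (2 without GFP2 replicate II, GFP3 replicate I or GFP3 replicate II). That share of 3.70% is near the 2.27% of all tested genes that were lower. Among FoxO, sestrin and antioxidant genes 5 of 27 rose and 2 fell (4 without GFP2 replicate III): thioredoxin Txn1 rose by 0.60 and its inhibitor Txnip fell by 0.44 (SE 0.08, limma adjusted p = 0.00443). The peroxiredoxins Prdx1 (0.38) and Prdx4 (0.47) rose, and the p53 target Sesn1 fell by 0.45. Sesn1 was the 1 lower gene of the 22 in the p53 target list, which does not hold Ndn (4.55%, against 2.27% of all tested genes). In that list 2 were lower without GFP2 replicate II, GFP3 replicate I or II, or GFP4 replicate III. Lysosome and autophagy genes had 1 higher and 6 lower of 32 (3.13% and 18.8%, against 3.07% and 2.27% of all tested genes). The lower ones were led by the autophagy gene Gabarapl1 (−0.51, SE 0.08, limma adjusted p = 0.00256). Without GFP2 replicate I 1 was lower, without GFP2 replicate III 2, and without GFP4 replicate I or III 3. The higher one, Gusb, was lost without any GFP2 library or GFP4 replicate I or III. Of 12 genes of the MYC and MAX network 2 were higher, Myc and Mxd3 (1.13), and of 12 multipotent progenitor markers 3 were higher, Cd34, Cdk6 and Myc, and 1 lower, Satb1.

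Markers of other cell types did not pass in most lists, but some differed in level. Of 14 macrophage markers limma called 0 (2 at an unadjusted p under 0.05, and 1 passed without GFP2 replicate I), while 13 differences were positive with a median of 1.32. The summed macrophage level was 1145 to 3198 ppm in GFP2 and 999 to 1896 in GFP4, which overlap (2-sided exact permutation test p = 0.6, where 3 against 3 cannot go below 0.1). C1qa, a complement gene of macrophages, was 10.65, 8.05 and 9.33 in GFP4, 9.35, 11.18 and 10.14 in GFP3 and 9.57, 12.22 and 10.44 in GFP2, so libraries of one bin differed by more than the bins did. Adgre1, which encodes F4/80, behaved alike (1.32, limma adjusted p = 0.554), as did Vcam1 (1.51, 0.378); both were highest in GFP2 replicate II. The macrophage median was highest in replicate II of GFP2 (2.55) and of GFP3 (1.56). These libraries had the lowest mitosis median of their bins (1.14 and 0.36). In GFP4 the macrophage median was highest in replicate I (0.88), where the mitosis median was −0.12, against 0.25 and −0.13 in replicates II and III. Without GFP2 replicate II, 49 mitosis genes and 690 genes in all were higher. Whether the macrophage and mitosis levels are linked was not tested.

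Neutrophil markers leaned the other way, with 0 of 13 called by limma (0 at an unadjusted p under 0.05), 12 differences negative and a median of −0.56. Their sum was 1747 to 4405 ppm in GFP2 and 2682 to 6948 in GFP4 (2-sided exact permutation test p = 0.3). S100a8 was 16.20, 14.90 and 16.04 in GFP4 and 14.45, 15.57 and 15.23 in GFP2, overlapping. Of 211 tested immunoglobulin genes 2 were called by limma, both higher in GFP2 from values near the lowest (0.95%, against 3.07% of all tested genes). Ighg2c was 1.54, 0.14 and 2.22 in GFP4 and 5.13, 4.98 and 5.18 in GFP2, and Igkv8-24 0.35, 1.06 and 0.14 and 5.46, 4.47 and 4.04. Variable segments are close copies of each other and these levels are low, so the sizes are uncertain. The abundant plasma cell transcripts varied between libraries of one bin. Igkc was 9.43, 12.08 and 12.88 in GFP4, 11.45, 12.67 and 9.65 in GFP3 and 9.71, 10.05 and 9.02 in GFP2, a difference of −1.87 that did not pass (limma adjusted p = 0.517), and Jchain likewise (−2.95, 0.645). Single genes were called in 3 further lists, where all tested genes had 3.07% higher and 2.27% lower. Of 12 plasma cell markers Fkbp11 (0.82) was higher (8.33%). Of 18 T and NK cell markers Nkg7 was higher and Klrb1c (−0.85) lower (5.56% each). Of 16 endothelial and stromal markers Emcn (−0.64) was lower (6.25%). Fkbp11, Klrb1c and Emcn each lost the call without any 1 of at least 4 libraries, with limma adjusted p up to 0.165, 0.160 and 0.119. Of 12 B cell markers and 12 mast cell, basophil and eosinophil markers 0 were called by limma (1 and 2 at an unadjusted p under 0.05). The part of macrophage and neutrophil transcripts in the results above was not tested.

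The GFP3 bin, numbered between the other 2, and was tested for a departure from the midpoint of GFP2 and GFP4, a contrast independent of the difference between those 2 bins. limma called 0 of 26183 genes at an adjusted p under 0.05 (smallest adjusted p 0.165), and 487 (1.86%) had an unadjusted p under 0.05. With 3 libraries per bin, a count of 0 does not place GFP3 at the midpoint. The GFP3 mean lay between the other bins in 802 of 804 genes called higher and in 584 of 594 called lower, a description, since the choice of genes uses the outer bins. At the median, GFP3 had covered 54.6% of the way from GFP4 to GFP2 in the higher genes and 53.3% in the lower genes. Individual libraries of GFP3 did not sit at one place on that path. The mitosis list median was 1.24, 0.36 and 0.94 in GFP3 replicates I, II and III, so replicate II was close to GFP4 and replicate I above the lowest GFP2 library. The HSC signature median was −0.33, −0.13 and −0.12, and here replicate I was the nearest to GFP2. Without GFP2 replicate III the midpoint contrast called 7 genes, and without GFP3 replicate I or III it called 1.

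**Figure D5:**
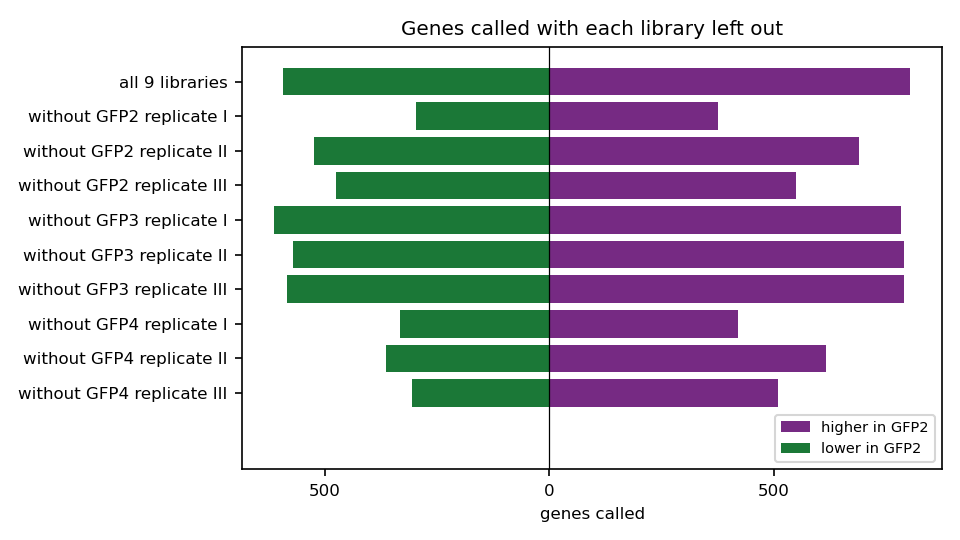
Genes called with each library left out in turn. Bars to the right (purple) count genes higher and bars to the left (green) genes lower in GFP2 at a limma adjusted p under 0.05. The count with all 9 libraries is 804 and 594, and the smallest, without GFP2 replicate I, is 376 and 297.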

How the data were processed

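RNA of sorted mouse HSCs was amplified with SMART-Seq v4 and made into libraries with Nextera XT, per the labels' protocols. The submitters' processing notes name kallisto 0.43.0 and the build GRCm38. The summing of transcripts to genes, the offset and the unit the values had before normalization were not given in the sources used. By their distribution, the log2 values that the authors deposited (1 row per gene symbol) are quantile normalized, so depth is unknown. All 15 columns matched a sample label. Linear values undo the log2 and subtract 1; ppm are shares of their sum in a library.

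limma 3.58.1 in R 4.3.3 fitted 1 mean per bin to the 9 libraries of GFP2, GFP3 and GFP4 (6 residual df, intensity trend, robust empirical Bayes, no covariate), with Benjamini-Hochberg adjustment at 0.05 over all 26183 genes. SE is limma's moderated standard error. The fit was tested on simulated data. Lists were described by counts and medians, and list sums compared by exact permutation of 3 against 3 libraries. Replicate numbers were not used as a block.

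Members, the 46 gene lists and the rule for named genes were chosen with earlier results of these data known. The rule takes the 12 largest rises and falls with a mean of at least 10 ppm, libraries that do not overlap and no predicted symbol, up to 3 genes each way per list by smallest p, and a fixed set of names; genes of the printed promoters and marker genes of other cell types were added after their values were seen. Coordinates come from GENCODE for GRCm38 and promoters from RefSeq (GRCm38.p6). Alternatives were the filter, the pseudocount, rescaling, array weights, plain empirical Bayes, a replicate block, the outer bins alone and each library left out.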

Additional observations from a re-analysis of the deposited data

How the results depend on the processing

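The counts of genes higher and lower in GFP2 (804 and 594) stayed within 1.5 times under the outer bins alone, no filter, a stricter filter, pseudocounts of 0.1 and 10, repeated quantile normalization, median-of-ratios rescaling, array weights and, added after seeing the data, a mean of at least 10 ppm (679 to 1003 higher, 504 to 763 lower). Plain empirical Bayes, with no intensity trend, gave 1 higher and 2 lower, with 3565 genes at an unadjusted p under 0.05, and 3 genes off the midpoint. With plain empirical Bayes and genes of at least 10 ppm, also added after seeing the data, it gave 886 and 696, so its low count goes with the genes of low level. With each library left out the counts ran from 376 to 791 and from 297 to 613, and those off the midpoint from 0 to 7. With the replicate block they were 949 and 743 (0 off the midpoint). Libraries of one number share age and doxycycline time, but the labels do not say that they share mice or a batch. The deviations of same-numbered libraries from their bin means correlated at −0.51, −0.35 and −0.06 between GFP2 and GFP4. They correlated at 0.25, 0.45 and 0.06 between GFP2 and GFP3 and at 0.15, −0.20 and 0.40 between GFP3 and GFP4. Pairing was thus not established, and the block was kept as an alternative. Some values did follow the replicate number in every bin. Mycn was 13.22, 13.31 and 13.73 in GFP4, 13.12, 13.25 and 13.79 in GFP3 and 13.18, 13.32 and 13.71 in GFP2. The summed level of the HSC ageing list also rose with the number in each bin. How many genes do so was not counted. Of the genes named, the block ended the calls of Mki67, Irf2bp2 and Kif22 (limma adjusted p = 0.0827, 0.0690 and 0.0583) and gained Fgd5 (0.00643). It raised the lower count of the Hox clusters from 1 to 3 and of p53 targets from 1 to 2, and the higher count of the quiescence list from 2 to 4. Over genes that averaged 10 ppm or more, 7 megakaryocyte and 3 histone cluster genes were higher, and 3 Hox genes, 3 p53 targets and 4 FoxO and antioxidant genes lower. Every called gene that was tested kept its sign in all settings. Of the 134 named genes called, 88 passed in all fits with a library left out. The signs that reversed were those of uncalled genes near 0: Cdkn1a (0.00092 with array weights), and, over the fits with a library left out, Cdkn1a (−0.23 to 0.11), Mycn (−0.17 to 0.14), Cebpa (−0.059 to 0.28), Cdkn1b (−0.032 to 0.068), Kit (−0.18 to 0.048) and Hoxb5 (−0.36 to 0.039). The cause was not tested. Depth is unknown, so genes near the lowest value are the least certain.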
